A study of Arabidopsis thaliana with 15 samples.

Results

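RNA of sorted nuclei was compared between the eds4 mutant and the wild type of Arabidopsis thaliana. The comparison rested on the 4 libraries whose labels give nuclei as the source, out of 15 libraries in all: 2 of eds4 and 2 of the wild type. Nuclei had been purified by fluorescence-activated sorting from 2-week-old seedlings, homozygous for eds4 (labelled eds4 -/-, with no ecotype named) or wild type (Col-0), and RNA was then extracted with phenol. Both genotypes grew on agarose medium at 22 °C in constant white light (50 µmol per square metre per second) and were not otherwise treated. Set beside the nuclei were total RNA of seedlings from the same distribution experiment (2 eds4 and 2 wild-type libraries) and seedlings of a separate profiling experiment (3 eds4 and 4 wild-type libraries). The labels do not say whether replicates were separate cultures. A p-value here therefore speaks only of the spread among the libraries fitted together. For nuclei, these were the nuclei and the total RNA libraries of the distribution experiment. The labels also do not say which nuclei the sort gated.

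EDS4 is the Arabidopsis NUP205, a scaffold protein of the inner ring of the nuclear pore complex. Pores carry mRNA out of the nucleus with the help of export factors and of nucleoporins such as RAE1, and several plant pore mutants are known for altered defence, flowering and clock phenotypes. RNA of nuclei holds newly made and unspliced transcripts beside finished mRNA, so a level in nuclei reflects synthesis, processing and export together. In bulk RNA, fewer nuclei of a type and less RNA per nucleus cannot be told apart.

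Counts per library came to 21786898 and 12393243 in eds4 nuclei, against 19594301 and 15291096 in wild-type nuclei. A count was recorded at 23411 and 20779 of 33602 loci in eds4 nuclei, against 22801 and 23608 in wild-type nuclei. Replicate nuclei varied more than replicate total RNA: the median absolute log2 difference between replicates was 0.50 for eds4 nuclei, 0.48 for wild-type nuclei, 0.31 for eds4 total RNA and 0.28 for wild-type total RNA.

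Chloroplast loci took 0.543 and 0.259% of counts in eds4 nuclei, against 1.33 and 4.21% in wild-type nuclei. Between 99.4 and 99.7% of those chloroplast counts lay on 7 loci that match chloroplast rRNA genes. Without them the chloroplast share was 0.00349 and 0.000855% in eds4 nuclei, against 0.00423 and 0.0124% in wild-type nuclei. Mitochondrial loci took 0.0135 and 0.00789% in eds4 nuclei, against 0.0236 and 0.203% in wild-type nuclei. The 4 nuclear rRNA loci took 1.303 and 1.592% in eds4 nuclei, against 2.79 and 11.2% in wild-type nuclei. All of these shares were lower in both eds4 libraries than in either wild-type library, and replicate 2 of the wild type stood highest in each. With 2 libraries against 2, the exact two-sided permutation test gave p = 0.333 for each share, which is the smallest p that 6 splits allow. Of the 66 tested chloroplast loci 0 passed the test across all genes (edgeR). Likewise 0 of 29 mitochondrial loci and 0 of 4 nuclear rRNA loci passed. At an unadjusted p under 0.05, 18, 18 and 4 of them were lower, beside 5.45% of all tested genes. These loci are not all separate, as the rRNA loci AT2G01010 and AT3G41768 are near copies of each other. ATCG00950 and ATCG01180 had almost equal counts, such as 251914 and 251892 in replicate 2 of wild-type nuclei. The order of the shares differed in total RNA of the same experiment. There chloroplast loci took 0.632 and 2.05% in eds4 and 0.661 and 0.731% in the wild type. RNA had been poly(A)-selected by the labels' protocols, and the part of rRNA left after that selection in these shares was not tested. The part of these shares in the genotype differences below was tested only by leaving the loci out, which is given beside the counts of genes.

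**Figure D1:**
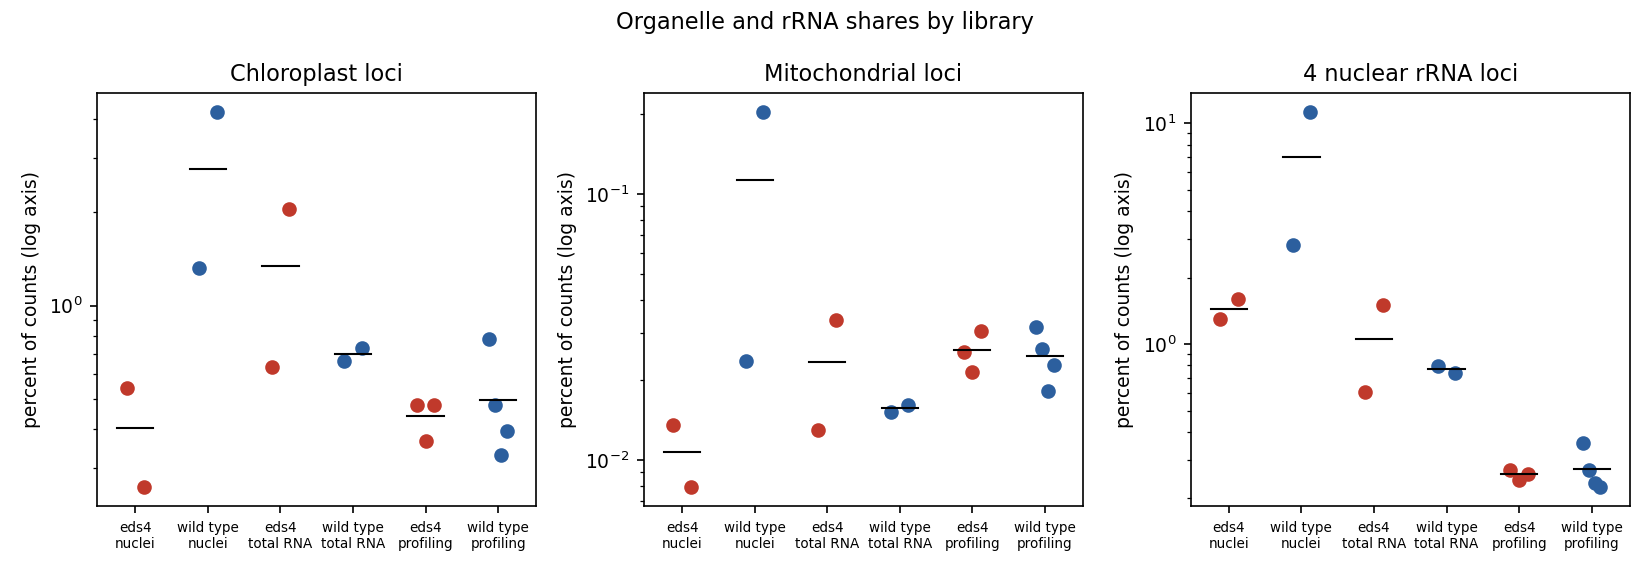
Share of counts per library at chloroplast loci, mitochondrial loci and the 4 nuclear rRNA loci (percent, log axis), with 1 point per library and a line at the group mean. Both eds4 nuclei libraries (1.303 and 1.592% nuclear rRNA) lie under both wild-type nuclei libraries (2.79 and 11.2%), and replicate 2 of wild-type nuclei is the highest point of each panel.

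Transcripts of the mutant locus did not separate the genotypes in nuclei. EDS4 (AT5G51200) stood at 59.6 and 62.5 CPM (counts per 1e6 counts of scaled library size) in eds4 nuclei, against 48.5 and 65.6 CPM in wild-type nuclei, so the groups overlapped. Its log2 fold change, eds4 over wild type, was 0.10 ± 0.26 (SE; edgeR quasi-likelihood test, adjusted p = 0.903), and without replicate 1 of the wild type it was -0.10. In total RNA it stood at 41.3 and 29.1 CPM in eds4, against 95.8 and 81.1 CPM in the wild type (log2 fold change -1.33 ± 0.26, unadjusted p = 0.000505, adjusted p = 1 by edgeR). The labels of the nuclei are therefore not checked by this transcript, while other genes, such as AT3G01345 below, differed in the same direction in nuclei and in total RNA.

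In nuclei, 78 of 21484 tested genes passed an adjusted p of 0.05 (0.363%), 67 of them higher in eds4 nuclei (0.312%) and 11 lower (0.0512%). At an unadjusted p under 0.05 there were 1868 higher genes (8.69%) and 1171 lower ones (5.45%). The raised genes had log2 fold changes of 1.37 to 9.26 (median 2.06), and the lowered ones of -9.33 to -1.81 (median -3.44). All 78 kept their direction in each of the 14 fits that were made, but the number that passed did not hold. It fell to 1 without replicate 1 of wild-type nuclei and to 1 without replicate 2, where the lone wild-type library is assumed to vary like the other groups. It was 181 (114 higher) without replicate 1 of eds4 nuclei and 26 (22 higher) without replicate 2. With library sizes scaled by DESeq2's size factors it was 32 (23 higher, or 71.9%, against 67 of 78 under TMM scaling), and with the organelle and rRNA loci left out it was 36 (27 higher, or 75.0%). The fit that gave 78 estimated the spread of each gene from nuclei and total RNA of the distribution experiment together. Replicate total RNA varied less than replicate nuclei, so the p-values for nuclei may be too small. Fitted on the 4 nuclear libraries alone, 3 genes passed: AT3G01345, QQS and BBX28.

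**Figure D2:**
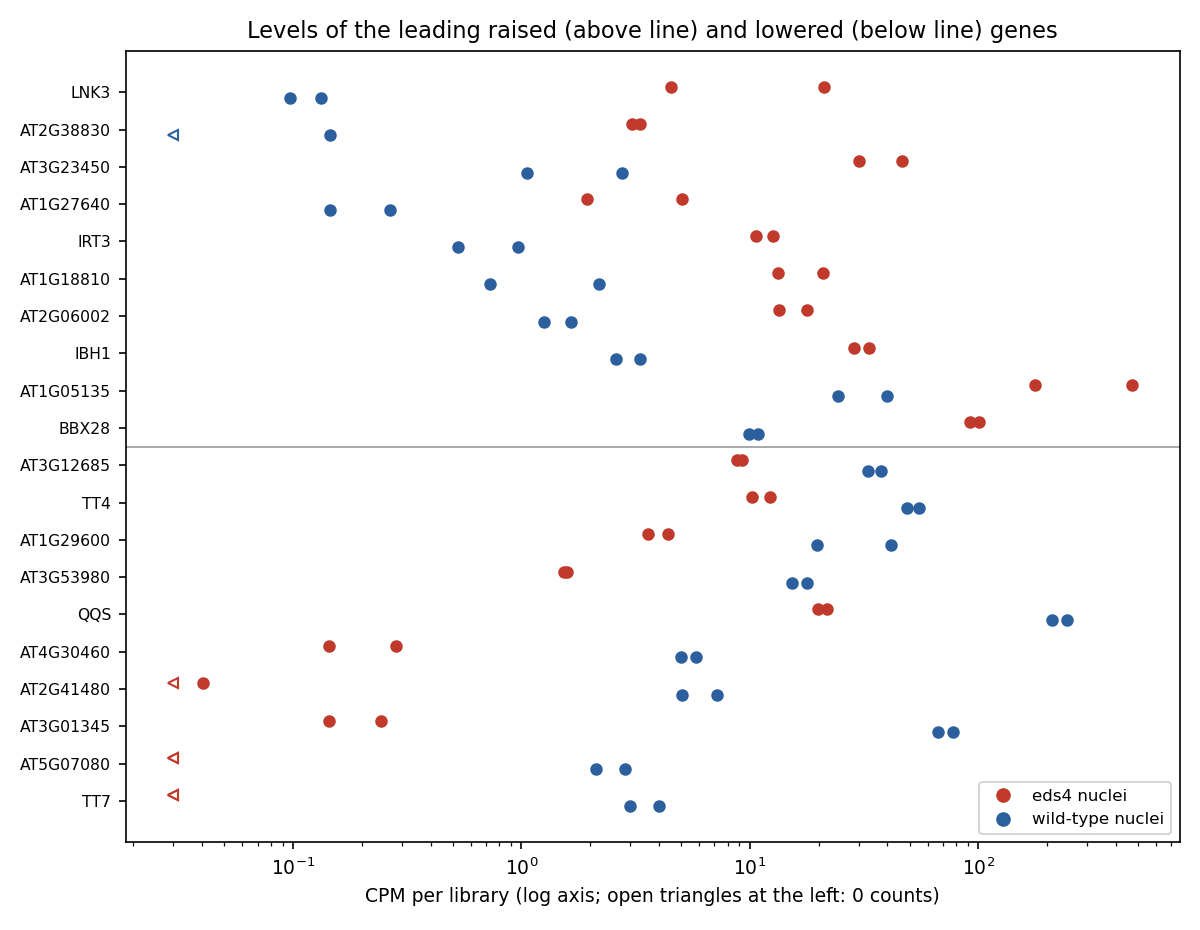
CPM in each nuclear library (log axis) for the 10 genes with the largest rises (above the line) and the 10 with the largest falls (below it) among those that passed the test with separated groups and an average log2 CPM of at least 1; red points are eds4 nuclei and blue points wild-type nuclei, and open triangles stand for 0 counts. The groups do not overlap for any of the 20 genes, as the selection required, and BBX28 lies at 92.3 and 101 CPM in eds4 nuclei against 10.9 and 9.93 CPM in wild-type nuclei.

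Among the raised genes were 3 regulators of light and clock responses. BBX28, a B-box zinc finger protein of light signalling (AT4G27310, chromosome 4, 13675638 to 13676910, TAIR10), stood at 92.3 and 101 CPM in eds4 nuclei, against 10.9 and 9.93 CPM in wild-type nuclei. The replicates lay close together and the log2 fold change was 3.21 ± 0.37 (adjusted p = 0.0229, edgeR). LNK3 (AT3G12320, chromosome 3, 3923735 to 3925465), a member of the night light-inducible and clock-regulated family, stood at 21.2 and 4.51 CPM in eds4 nuclei, against 0.0967 and 0.132 CPM in wild-type nuclei. Its eds4 replicates were far apart, yet both exceeded the wild type (log2 fold change 6.77 ± 1.07, adjusted p = 0.0419). LNK4 (AT5G06980, chromosome 5, 2167468 to 2169391), of the same family, stood at 44.8 and 53.4 CPM in eds4 nuclei, against 10.6 and 9.73 CPM in wild-type nuclei (log2 fold change 2.27 ± 0.37, adjusted p = 0.0444). AT1G18810, annotated as phytochrome kinase substrate-like, stood at 20.9 and 13.3 CPM in eds4 nuclei, against 2.18 and 0.728 CPM in wild-type nuclei (log2 fold change 3.53). The promoters of BBX28, LNK3 and LNK4 are shown because these genes moved one way in nuclei and the other way in profiling seedlings. Each window holds the 300 bases upstream of the RefSeq start of the gene (TAIR10 coordinates, sequence from RefSeq TAIR10.1, read 5′ to 3′), with the G-box CACGTG in capitals. RefSeq starts LNK3 at 3923515, LNK4 at 2167120 and BBX28 at 13675537, which is 220, 348 and 101 bases upstream of the starts in the deposited tables given above; for the counts over all genes, windows end before whichever of both starts lies further upstream.
LNK3, chr3:3923215-3923514, forward strand: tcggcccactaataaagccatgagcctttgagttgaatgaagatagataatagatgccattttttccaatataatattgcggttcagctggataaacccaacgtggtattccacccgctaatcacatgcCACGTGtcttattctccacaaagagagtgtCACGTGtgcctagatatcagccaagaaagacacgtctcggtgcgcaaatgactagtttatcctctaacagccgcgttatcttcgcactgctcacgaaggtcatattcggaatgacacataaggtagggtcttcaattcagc
LNK4, chr5:2166820-2167119, forward strand: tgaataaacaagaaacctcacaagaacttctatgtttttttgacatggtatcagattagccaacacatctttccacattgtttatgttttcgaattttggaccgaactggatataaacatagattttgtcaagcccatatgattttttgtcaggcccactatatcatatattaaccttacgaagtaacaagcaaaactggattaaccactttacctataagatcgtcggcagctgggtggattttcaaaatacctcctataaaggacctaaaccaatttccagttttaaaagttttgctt
BBX28, chr4:13675237-13675536, forward strand: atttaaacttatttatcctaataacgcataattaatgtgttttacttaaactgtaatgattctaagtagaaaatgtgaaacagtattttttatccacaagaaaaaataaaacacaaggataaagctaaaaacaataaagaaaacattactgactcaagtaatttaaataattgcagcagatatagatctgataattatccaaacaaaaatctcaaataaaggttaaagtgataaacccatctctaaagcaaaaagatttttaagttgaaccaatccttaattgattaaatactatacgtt
The LNK3 window held 2 G-boxes, while these letters do not occur in the LNK4 and BBX28 windows. Over both strands, and the G-box reads the same on each, the motif stood in 9 of 67 windows of raised genes (13.4%), beside 1646 of 21306 windows of all tested genes (7.73%), and 2 or more copies were in 2 of the 67 (2.99%), beside 240 of all (1.13%). NUP98B and ORA59 were among the other raised genes with a copy. The GCC box GCCGCC, a sequence bound by ethylene response factors, was in 3 of 67 windows (4.48%) beside 2.42% of all, the evening element AAAATATCT in 2 of 67 (2.99%) beside 2.91%, the rapid stress response core CGCGTT in 5 of 67 (7.46%) beside 3.31%, the W-box TTGACC in 7 of 67 (10.4%) beside 13.8%, and the letters TATAAA in 61.2% beside 51.3%. A match is a description of the sequence and not a bound site.

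Of the raised genes, 3 encode transcription factors of the AP2/ERF superfamily, RAP2.4, ORA59 and RAP2.9; no list of this family was tested. RAP2.4, linked to light and ethylene responses, stood at 2751 and 2970 CPM in eds4 nuclei, against 834 and 584 CPM in wild-type nuclei (log2 fold change 2.01 ± 0.32, adjusted p = 0.0420, edgeR). ORA59, which integrates jasmonate and ethylene signals, stood at 59.96 and 107 CPM in eds4 nuclei, against 12.0 and 13.1 CPM in wild-type nuclei (log2 fold change 2.73). RAP2.9 stood at 62.8 and 160 CPM in eds4 nuclei, against 13.8 and 15.02 CPM in wild-type nuclei (log2 fold change 2.95). In each of these both wild-type libraries lay under both mutant libraries. IBH1, a helix-loop-helix protein that restrains cell elongation, stood at 28.5 and 33.2 CPM in eds4 nuclei, against 3.29 and 2.58 CPM in wild-type nuclei (log2 fold change 3.39 ± 0.40, adjusted p = 0.0251). ORA59, RAP2.9, CAF1b, MOS2, the RING-finger genes, COPT6, CLH1, CAO, AT1G55915 and some members of the lists below were picked after their values were seen.

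Both nucleoporins that passed were higher in the mutant. NUP98B, one of the pair of Arabidopsis NUP98 proteins of the pore's channel, stood at 43.9 and 40.0 CPM in eds4 nuclei, against 10.2 and 9.86 CPM in wild-type nuclei (log2 fold change 2.07 ± 0.32, adjusted p = 0.0400, edgeR). RAE1, an mRNA export factor at the pore, stood at 52.2 and 72.6 CPM in eds4 nuclei, against 21.4 and 17.0 CPM in wild-type nuclei (log2 fold change 1.70 ± 0.27, adjusted p = 0.0420). Other raised genes had annotated roles in RNA binding, deadenylation or immunity. CAF1b, a subunit of the deadenylase complex that shortens poly(A) tails, stood at 33.4 and 37.0 CPM in eds4 nuclei, against 3.97 and 6.29 CPM in wild-type nuclei (log2 fold change 2.78). AT1G72800, annotated as an RNA-binding protein, stood at 24.3 and 44.8 CPM in eds4 nuclei, against 3.14 and 5.69 CPM in wild-type nuclei (log2 fold change 2.97). MOS2, a G-patch protein found through its part in plant immunity, stood at 21.5 and 24.8 CPM in eds4 nuclei, against 5.66 and 8.87 CPM in wild-type nuclei (log2 fold change 1.68). RING-finger proteins, many of which act as ubiquitin ligases, included ATL15, ATL4, RHA1B and BRH1. ATL15, whose locus lists an overlap with AT1G22510, had the largest difference of these (log2 fold change 2.68): 34.2 and 23.2 CPM in eds4 nuclei, against 3.53 and 5.49 CPM in wild-type nuclei.

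Metal transport genes were represented by IRT3 and COPT6. IRT3, a zinc and iron transporter, stood at 10.6 and 12.6 CPM in eds4 nuclei, against 0.967 and 0.529 CPM in wild-type nuclei (log2 fold change 3.93 ± 0.56, adjusted p = 0.0366, edgeR). COPT6, a copper transporter, stood at 53.8 and 52.4 CPM in eds4 nuclei, against 17.41 and 21.2 CPM in wild-type nuclei (log2 fold change 1.46). Of chloroplast-related genes, CLH1 (chlorophyllase 1) had a log2 fold change of 1.42, and CAO, annotated as a component of the chloroplast signal recognition particle, had one of 1.49. The other leading rises belonged to genes with little annotation. AT2G38830, like a ubiquitin-conjugating enzyme, had 121 counts in eds4 nuclei, against 3 in wild-type nuclei, a ratio of 37.3 (exact counting interval 12.5 to 184). AT3G23450 stood at 29.96 and 46.1 CPM in eds4 nuclei, against 2.76 and 1.06 CPM in wild-type nuclei, and the pseudogene AT1G05135 at 177 and 470 CPM in eds4 nuclei, against 39.7 and 24.3 CPM in wild-type nuclei. AT2G06002, a non-coding RNA, and AT1G27640, whose locus overlaps AT1G27650, had log2 fold changes of 3.42 and 4.11. Below the minimum level for the leading genes, AT1G55915 had 116 counts in eds4 nuclei, against 0 in wild-type nuclei, which makes it at least 35.8-fold higher against a floor of 3 counts over the group.

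Lowered genes included the flavonoid synthesis enzymes TT7 and TT4, and no list of this pathway was tested. TT7, the flavonoid 3′-hydroxylase, had 0 counts in both eds4 libraries, against 4.01 and 2.98 CPM in wild-type nuclei (128 counts), and was at least 46.1-fold lower in eds4 nuclei against a floor of 3 counts over the group (adjusted p = 0.0438, edgeR). TT4, the chalcone synthase that opens the flavonoid pathway, stood at 12.3 and 10.2 CPM in eds4 nuclei, against 48.9 and 54.7 CPM in wild-type nuclei (log2 fold change -2.20 ± 0.33, adjusted p = 0.0399), and its locus overlaps AT5G13940. In total RNA TT7 stood at 1.37 and 3.22 CPM in eds4 and 2.07 and 2.22 CPM in the wild type, so those groups overlapped. TT4 overlapped there too, at 23.1 and 27.2 CPM in eds4 and 26.8 and 52.8 CPM in the wild type. In profiling seedlings the log2 fold change was 0.22 for TT7 (adjusted p = 0.658, edgeR) and 0.23 for TT4 (adjusted p = 0.503). The acyltransferase-family gene AT5G07080 had 0 counts in eds4 nuclei, against 91 in wild-type nuclei, at least 32.8-fold lower in eds4. The peroxidase AT2G41480 had 1 count in eds4 nuclei, against 225 in wild-type nuclei, a ratio of 0.00412 (counting interval 0.000104 to 0.0232).

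AT3G01345 passed in nuclei and in total RNA and QQS in nuclei, while neither passed in the profiling experiment. AT3G01345, an uncharacterised gene, stood at 0.243 and 0.143 CPM in eds4 nuclei, against 66.9 and 77.8 CPM in wild-type nuclei (log2 fold change -8.43 ± 0.46, adjusted p = 0.000114, edgeR). In total RNA it stood at 0 and 0.0908 CPM in eds4, against 198 and 197 CPM in the wild type. In the profiling experiment it reached at most 0.401 CPM in the 7 libraries: 0.241, 0.384 and 0.145 CPM in eds4, and 0.401, 0.139, 0.108 and 0.141 CPM in the wild type. High levels were thus seen in the 4 wild-type libraries of the distribution experiment alone, and the labels do not say whether the wild types of the 2 experiments came from the same seed stock. QQS, an orphan gene that affects the balance of starch and protein, stood at 21.9 and 19.8 CPM in eds4 nuclei, against 244 and 211 CPM in wild-type nuclei (log2 fold change -3.44 ± 0.43, adjusted p = 0.0251). In total RNA QQS stood at 1.34 and 4.27 CPM in eds4, against 27.0 and 26.4 CPM in the wild type, and in profiling seedlings at 4.39 to 9.31 CPM in eds4 and 5.89 to 9.43 CPM in the wild type. AT3G01345 passed in 13 of 14 fits and QQS and BBX28 in 11. The other falls named by rule were AT4G30460 (log2 fold change -4.57), AT3G53980 (-3.41), AT1G29600 (-2.93) and AT3G12685 (-1.96).

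Raised genes had few exons. Of the 67, 42 had a single exon in their longest RefSeq model (62.7%), beside 3473 of 21307 tested genes with a model (16.3%), and 2 of the 11 lowered genes had a single exon. Over all tested genes, the median log2 fold change in nuclei was 0.41 for 3473 genes of 1 exon, 0.04 for 7217 genes of 2 to 4 exons, -0.07 for 6388 of 5 to 9 and -0.08 for 4229 of 10 or more. The difference between exon classes was present in every pairing of libraries: the median log2(CPM + 1) difference of 1-exon genes was 0.28 and 0.21 for eds4 replicate 1 against the wild-type replicates and 0.33 and 0.32 for eds4 replicate 2, while that of genes of 5 to 9 exons ran from -0.08 to -0.02. Fits that left out 1 nuclear library gave medians of 0.28 to 0.50 for 1-exon genes.

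Level and length differ between these classes, with a median locus length of 1202 bases for 1-exon genes and 3959 bases for genes of 10 or more exons. Among genes of average log2 CPM of up to 2, the median was 0.03 for 1653 genes of 1 exon (50.8% above 0) and -0.22 for 408 genes of 10 or more. Over log2 CPM of 2 to 4, 4 to 6 and above 6, the 1-exon medians were 0.55, 0.58 and 0.45, and those of genes of 10 or more exons were -0.03, -0.07 and -0.12. Within loci of 1000 to 1500 bases it was 0.64 for 732 genes of 1 exon and -0.11 for 354 genes of 5 to 9. Loci over 3000 bases went the other way, with a median of -0.48 for 251 genes of 1 exon. By library, 1-exon loci took 10.2 and 11.2% of counts at nuclear loci in eds4 nuclei, against 8.28 and 7.97% in wild-type nuclei (rRNA left out). The groups did not overlap, and the exact permutation p was 0.333, again the smallest possible. In total RNA the same share was 14.3 and 12.8% in eds4 and 13.5 and 13.4% in the wild type, which overlapped, and in profiling seedlings it was 9.11 to 9.50% in eds4 and 9.37 to 10.1% in the wild type. Median log2 fold changes were 0.08 for 1-exon genes and -0.14 for genes of 10 or more exons in total RNA, and 0.10 and -0.08 in profiling seedlings. This grouping by exons was chosen after the values were seen.

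**Figure D3:**
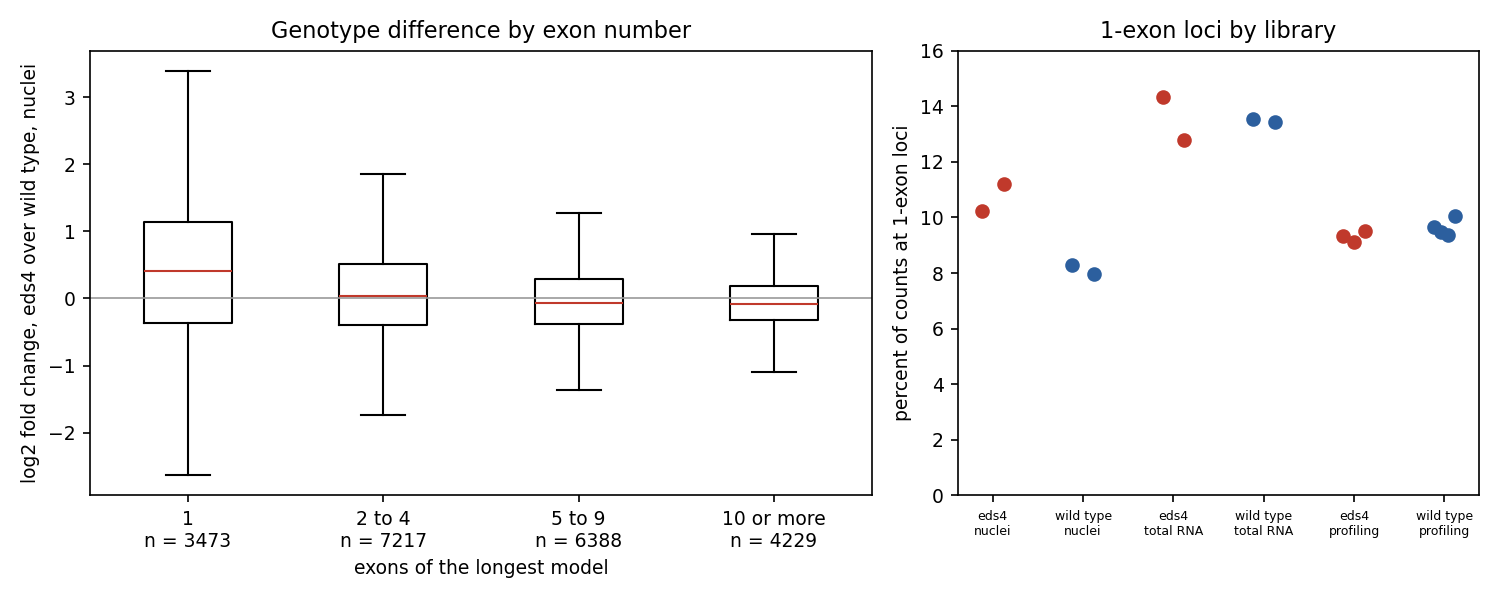
Left, log2 fold change in nuclei of all tested genes by number of exons (line, median; box, quartiles; whiskers, to 1.5 times the box height; outlying genes not drawn). Right, percent of counts at nuclear loci that fell on 1-exon loci, 1 point per library; the eds4 nuclei (10.2 and 11.2%) lie above the wild-type nuclei (8.28 and 7.97%), while the total RNA groups overlap.

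Among the gene lists, members passed the test in nucleoporins and in the circadian clock. Of 29 nucleoporins, NUP98B and RAE1 rose, beside 0.312% of all tested genes, 0 fell and 27 did not pass, with a median log2 fold change of 0.06 beside -0.00 over all tested genes. Of 22 clock genes, LNK3 and LNK4 rose, 0 fell and 20 did not pass. The clock list had a median of 0.61, with 18 of 22 members above 0 beside 49.4% of all genes, and the median ran from 0.17 to 1.00 over the other fits. The morning-expressed regulator CCA1 stood at 66.0 and 14.9 CPM in eds4 nuclei, against 12.6 and 9.33 CPM in wild-type nuclei (log2 fold change 1.88, adjusted p = 0.195), and PRR9 at 31.8 and 4.08 CPM in eds4 nuclei, against 2.66 and 1.99 CPM in wild-type nuclei (2.95, adjusted p = 0.152). For LNK3, CCA1 and PRR9, replicate 1 of eds4 nuclei carried the higher value. LNK2 stood at 634 and 446 CPM in eds4 nuclei, against 273 and 203 CPM in wild-type nuclei (1.18, adjusted p = 0.141). TOC1, an evening-expressed repressor, stood at 544 and 449 CPM in eds4 nuclei, against 791 and 549 CPM in wild-type nuclei (-0.43, adjusted p = 0.525). In total RNA the median of the clock list was -0.33 and in profiling seedlings -0.13.

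None of the other pathway lists had a member that passed, while 0.363% of all tested genes did. The 18 RNA export genes had a median log2 fold change of 0.07, the 17 RNA decay genes -0.03 and the 15 SR splicing factors -0.11, and each of these medians changed sign in 1 to 5 of the other 13 fits. In the export list XPO1B, an exportin, stood at 38.3 and 35.8 CPM in eds4 nuclei, against 14.7 and 20.5 CPM in wild-type nuclei (log2 fold change 1.08, adjusted p = 0.126, edgeR). SAC3B, of the mRNA export complex TREX-2, stood at 127 and 125 CPM in eds4 nuclei, against 239 and 211 CPM in wild-type nuclei (-0.83, adjusted p = 0.147). Defence lists lay near the middle for salicylic acid (14 tested, median -0.10) and above it for jasmonate (12 tested, median 0.46, from 0.08 to 0.82 over the other fits, 10 above 0). Of the jasmonate list MYC2, its leading transcription factor, stood at 169 and 118 CPM in eds4 nuclei, against 70.6 and 30.3 CPM in wild-type nuclei (1.51, adjusted p = 0.181). Heat shock genes had a median of 1.74 over 8 tested members, 7 of them above 0, at low levels. At an unadjusted p under 0.05 (edgeR), 4 of them were higher in eds4 nuclei and 0 lower, beside 8.69% and 5.45% of all tested genes. MBF1C, whose locus overlaps AT3G24503, had a log2 fold change of 1.12 (adjusted p = 0.202). HSP17.6II had 38 counts in eds4 nuclei, against 0 in wild-type nuclei (at least 11.7-fold higher). HSP101, the member not above 0, stood at 16.4 and 10.3 CPM in eds4 nuclei, against 15.2 and 14.0 CPM in wild-type nuclei. The 10 touch and early stress genes had a median of 0.55 (0.01 to 1.27 over the other fits), the 17 tested flowering genes 0.20 and the 24 photosynthesis genes -0.01. Of 38 nuclear genes with a numbered RPL or RPS symbol, a rule that does not separate cytosolic from plastid ribosomes, 33 lay under 0 (median -0.33), and 21 had groups that did not overlap with eds4 lower, beside 18.8% of all genes. The other lists without a member past the threshold were gene silencing (12 tested, median -0.25), loci of at least 9000 bases (160 tested, median -0.10), primary microRNA transcripts (31 tested, median -0.41) and the mitochondrial insertion of chromosome 2 (30 tested, median -3.25), whose sequence resembles the mitochondrial genome.

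Cell type markers of seedling tissues were read in the same fit, and 0 of them passed. Endodermis markers had a median of -0.74 with 7 of 9 below 0. Of these CASP1, which builds the Casparian strip, stood at 5.34 and 12.4 CPM in eds4 nuclei, against 25.5 and 30.6 CPM in wild-type nuclei (log2 fold change -1.67, adjusted p = 0.248, edgeR), and SCR at 37.5 and 37.2 CPM in eds4 nuclei, against 23.7 and 22.1 CPM in wild-type nuclei (0.71, adjusted p = 0.212). The 9 endodermis markers summed to 94.5 and 104 CPM in eds4 nuclei, against 136 and 153 CPM in wild-type nuclei, with 0 of them at 0 counts. The 6 tested root hair markers had a median of -2.44 and all 8 summed to 4.29 and 6.09 CPM in eds4 nuclei, against 12.5 and 7.88 CPM in wild-type nuclei. Guard cell markers had a median of 0.38, with 5 of 9 above 0 and members from -2.77 to 1.94, and this median turned negative in 2 of 13 other fits (to -0.10). The highest of them was FAMA, which commits guard cells, at 15.7 and 14.7 CPM in eds4 nuclei, against 3.53 and 4.37 CPM in wild-type nuclei (1.94, adjusted p = 0.0716). The 9 guard cell markers summed to 56.9 and 49.3 CPM in eds4 nuclei, against 33.6 and 36.0 CPM in wild-type nuclei. Medians of the epidermis (0.21), phloem (-0.20), xylem (-0.09) and dividing-cell lists (0.08) were smaller. The epidermis median ran from 0.06 to 0.29 over the other fits, and 5 of its 9 members lay above 0. At an unadjusted p under 0.05 (edgeR), 4 of these 9 were higher and 1 lower, beside 8.69% and 5.45% of all tested genes. The epidermis markers summed to 728 and 697 CPM in eds4 nuclei, against 548 and 561 CPM in wild-type nuclei. The 5 seed storage genes had 0 counts in eds4 nuclei and sums of 0.725 and 0.199 CPM in wild-type nuclei. The part of a different mix of nuclei in the genotype differences was not tested.

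**Figure D4:**
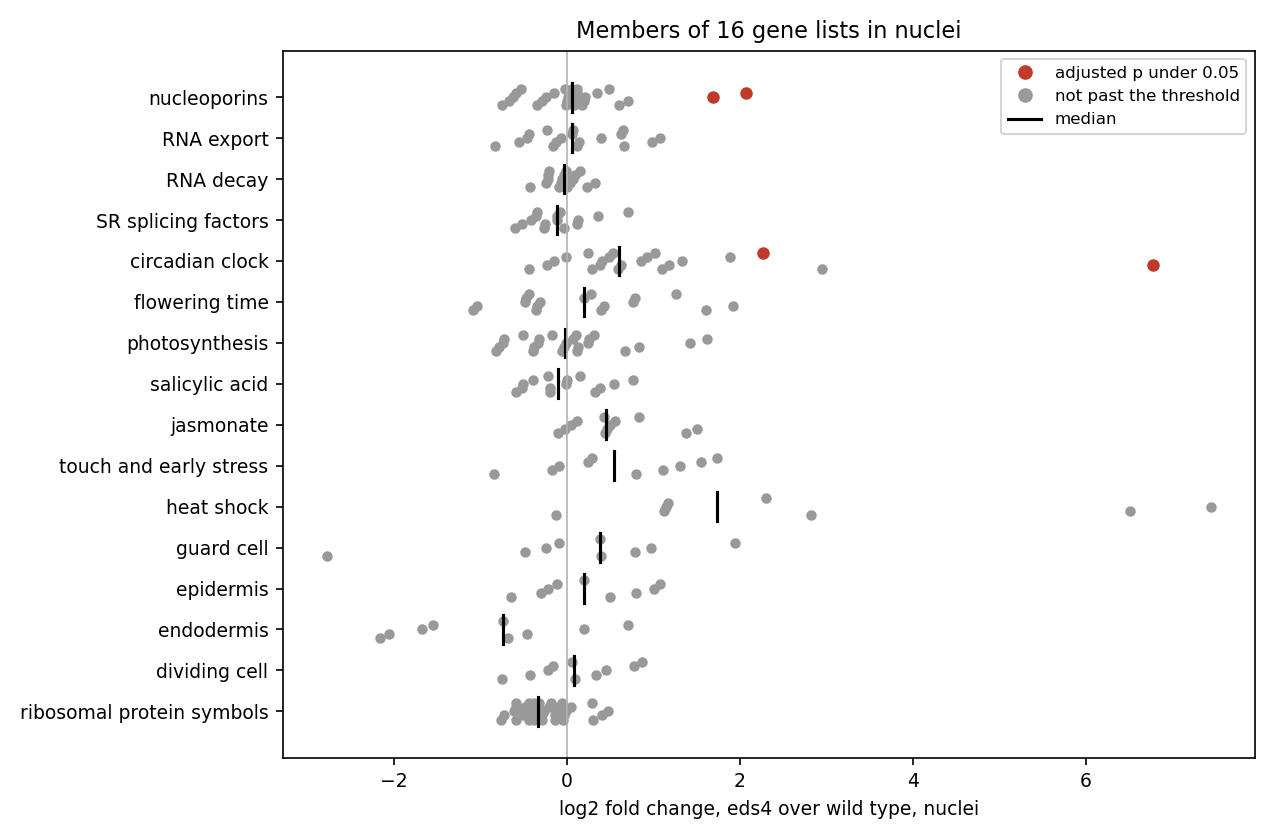
log2 fold change in nuclei, eds4 over wild type, for each tested member of 16 gene lists (1 point per gene, line at the median; red, adjusted p under 0.05; grey, not past the threshold). Red points occur in the nucleoporin list (NUP98B and RAE1) and in the clock list (LNK3 at 6.77 and LNK4 at 2.27).

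Total RNA of the same experiment showed 1 gene past the threshold, AT3G01345, of 21484 tested (0.00465%; 605, or 2.82%, at an unadjusted p under 0.05). Of the 67 genes raised in nuclei, 59 had a log2 fold change above 0 in total RNA, beside 48.2% of all tested genes, with a median of 0.55. In 48 of them both eds4 total RNA libraries lay above both wild-type ones, beside 17.2% of all tested genes. The fit that called these genes took their spread partly from the same total RNA libraries, so their choice was not independent of those libraries. The difference between the nuclear and the total RNA effect passed for 0 of 21484 genes by edgeR (0.0%; 1252, or 5.83%, at an unadjusted p under 0.05) and for 40 by DESeq2. BBX28 stood at 28.7 and 15.3 CPM in eds4 total RNA, against 9.78 and 5.90 CPM in wild-type total RNA, and RAP2.4 at 241 and 364 CPM in eds4, against 129 and 113 CPM in the wild type. By edgeR, effects in nuclei are therefore not shown to differ from those of whole seedlings grown for the same experiment.

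The profiling seedlings, which share no library with the nuclei, had 297 of 22202 genes past the threshold (1.34%), 168 higher in eds4 (0.757%) and 129 lower (0.581%). Of these, 291 were tested in nuclei, where 173 had the same direction (59.5%), beside 54.8% of the 20924 genes tested in both. Of the 165 tested genes that were raised in profiling seedlings, 9 rose in nuclei and 0 fell, and their median nuclear log2 fold change was 0.75. Of the 126 that were lowered, 3 rose and 1 fell in nuclei, and the median was 0.31, running from -0.29 to 0.71 over the other fits. Over all genes tested in nuclei, 0.312% rose and 0.0512% fell. In all, 13 genes passed in both, 10 of them in the same direction. RAP2.4 stood at 647, 706 and 622 CPM in eds4 seedlings, against 157 to 167 CPM in the 4 wild-type seedlings (log2 fold change 2.03), close to its nuclear value of 2.01 (difference -0.08 ± 0.23, adjusted p = 0.911, edgeR). NUP98B had 1.79 in seedlings and 2.07 in nuclei (difference 0.22 ± 0.22, adjusted p = 0.627), AT1G72800 had 2.32 and 2.97 (0.60 ± 0.38, adjusted p = 0.411) and RAE1 had 1.01 and 1.70 (0.62 ± 0.23, adjusted p = 0.158).

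3 genes went opposite ways in the 2 experiments. LNK3 stood at 19.7, 22.4 and 20.4 CPM in eds4 seedlings, against 39.7 to 45.9 CPM in wild-type seedlings (log2 fold change -1.01 ± 0.08, adjusted p = 0.00182, edgeR), where nuclei had shown 6.77. LNK4 stood at 23.7, 20.6 and 35.5 CPM in eds4 seedlings, against 46.3 to 63.1 CPM in wild-type seedlings (-1.02 ± 0.19, adjusted p = 0.0444). BBX28 stood at 16.3, 15.9 and 20.8 CPM in eds4 seedlings, against 30.8 to 36.3 CPM in wild-type seedlings (-0.91 ± 0.11, adjusted p = 0.00908). In a joint fit of the 4 nuclear and 7 profiling libraries, a test chosen after these values were seen, the effect in nuclei minus that in seedlings was 7.79 ± 0.90 for LNK3 (adjusted p = 0.00478), 3.23 ± 0.32 for LNK4 (0.00232) and 4.07 ± 0.21 for BBX28 (2.6e-05). This fit gave nuclear and profiling libraries 1 shared estimate of spread per gene. Its standard error for BBX28 (0.21) was smaller than that of the nuclear effect alone (0.37), so such errors and their p-values may be too small. The joint fit by itself cannot tell nuclei against whole seedlings from the change of experiment. Both limits hold for every difference from seedlings given here. Total RNA of the distribution experiment also came from whole seedlings. There LNK3, LNK4 and BBX28 were higher in eds4, as in nuclei, with log2 fold changes of 1.92, 1.16 and 1.49. None of the 3 passed there. LNK3 stood at 4.30 and 2.72 CPM in eds4 total RNA, against 1.41 and 0.429 CPM in wild-type total RNA. These LNK3 levels lay under those of all 7 profiling libraries. The labels give no hour of harvest for either experiment.

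**Figure D5:**
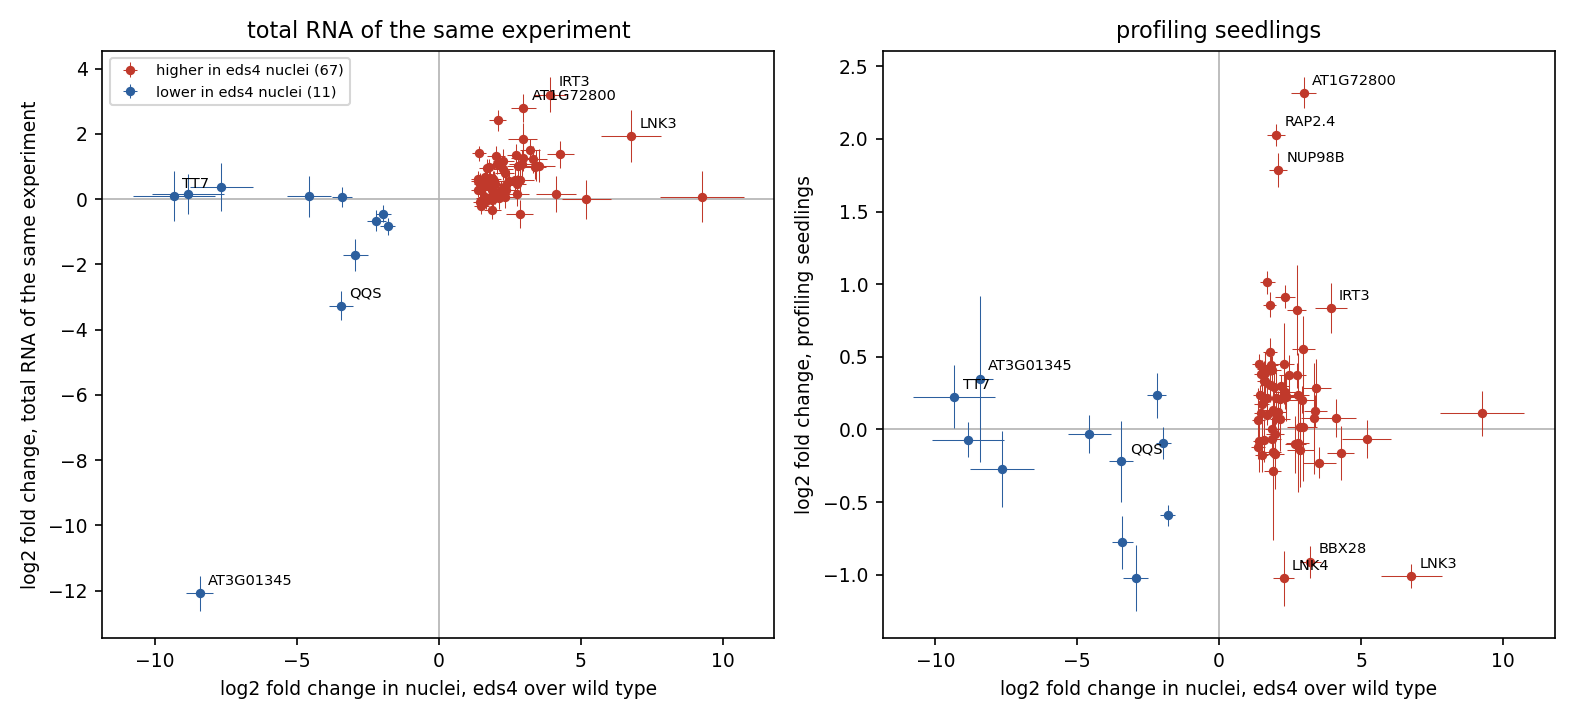
log2 fold changes, eds4 over wild type, of the 78 genes that passed in nuclei (horizontal axis) against those in total RNA of the same experiment (left) and in profiling seedlings (right); bars are standard errors. LNK3, LNK4 and BBX28 lie to the right and below 0 in the right panel, and AT3G01345 is at -12.09 in total RNA and 0.35 in profiling seedlings.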

How the data were processed

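Raw read counts over 33602 loci were deposited in 3 tables by the authors; per the submitters' processing notes, TopHat2 2.1.1, SAMtools 1.3 and TAIR10 were used. The counting program is not given in the sources used here. Per the labels' protocols, RNA was poly(A)-selected and amplified with 12 PCR cycles without strand marking, so reads of overlapping loci cannot be told apart: 489 list an overlap and 4329 overlap another by coordinates, among them 12 of the 67 raised genes. How intronic reads were counted is not stated either. Intervals and floors cover counting error only. 0 columns belonged to other samples.

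All 8 distribution libraries were fitted together with edgeR 4.0.16 (R 4.3.3; quasi-likelihood test, filterByExpr, TMM, Benjamini-Hochberg threshold 0.05), and the profiling libraries in their own fit. TMM sets the typical gene to no change. Alternatives included DESeq2 1.42.0, other scalings and filters, a replicate block and each library left out; limma voom 3.58.1 was added after the data were seen. The script was tested on simulated data. Exons, strands and names came from RefSeq TAIR10.1 (32835 loci matched by locus tag); start and end were identical for 32.28% of them, 85.87% of tRNA loci and 99.74% of pseudogenes, so exon numbers and windows follow RefSeq models, not those counted.

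The rule for naming genes took EDS4, the 10 largest rises and falls that passed with separated groups and a minimum average log2 CPM of 1, up to 2 genes per list, and the 5 largest of the profiling seedlings each way. Not every gene that this rule picked is printed, among them AT1G63530 and AT5G45990, raised in profiling seedlings. Members and lists were chosen with earlier results of these data known.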

Additional observations from a re-analysis of the deposited data

Results flagged for a closer look

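The genotype effect in nuclei differed from that in profiling seedlings in a joint fit (edgeR, adjusted p under 0.05) for 12 of the 16 genes for which both effects are set side by side, beside 771 of 23270 genes (3.31%); 15 of the 16 had passed in nuclei. LNK3 differed by 7.785 on the log2 scale, BBX28 by 4.066 and LNK4 by 3.234, each raised in nuclei and lowered in seedlings. AT3G01345 differed by -8.832 and QQS by -3.281, being lower in eds4 nuclei and not past the threshold in seedlings. EDS4 differed by 1.097, with a log2 fold change of 0.10 in nuclei and -1.05 in seedlings. The other genes had the same direction in both and a larger effect in nuclei: AT1G14200 by 1.342, APRL7 by 1.316, BRH1 by 1.201, SNRK2.4 by 0.8833 and AT1G13360 by 0.8589 were raised, and AT5G05060, by -1.275, was lowered. As 15 of the 16 genes had passed in nuclei, this choice itself favours larger effects in nuclei and differences from seedlings. The limits of the joint fit given above hold here too.

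Of 19 groups of 4 wild-type profiling seedlings examined for a sample far from the rest, 1 stood out: for AT3G01345 the gap of replicate 1 (0.401 CPM) to the next library was 0.889 of the group's range. Chance flags about 1 in 20 such groups.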

How the results depend on the processing

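With 2 libraries per group, the number of genes that passed in nuclei (78) depended on the fit, although their directions did not. It was 32 with DESeq2 size factors, 36 without organelle and rRNA loci, 1167 with no filter on low counts, 860 with the DESeq2 Wald test, 3 with the 4 nuclear libraries alone and 1 with voom library weights (QQS). All 78 were among those called by the DESeq2 Wald test, with no filter and with the replicate block. Leaving out 1 library gave 1 to 181. The replicate block gave 248 genes, and 1084 on the nuclear libraries alone; replicate numbers are not stated to pair samples, and the deviations of same-numbered nuclei correlated at 0.105. In total RNA the count (1) became 95 with no filter, 17 by DESeq2, 3 with the replicate block, 6 with voom and 1 to 2 with a library left out. The difference between nuclei and total RNA (0) became 226 with no filter and 40 by DESeq2. In profiling seedlings the count (297) became 1037 by DESeq2 and 42 to 462 with a library left out. The cause of these moves was not tested. The organelle and rRNA shares were taken from raw counts, so scaling, filter and test cannot move them. Leaving out 1 library cannot turn the sign of their differences either, since the groups did not overlap. Of 30 list medians in nuclei, 14 changed sign in at least 1 of 13 other fits, most often RNA export (5), dividing cells (4), nucleoporins (3) and flowering time (3).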
